A study of Mus musculus with 11 samples.

Results

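Genes of the major histocompatibility complex (MHC) antigen presentation pathways were followed through a table of testis RNA counts: 10 of the 24411 genes in it. They were taken as a list of names, which was chosen with earlier results of these data known. The shares of all genes given beside counts of these 10 are therefore a description and not a test of the list. The class I path was represented by 7 genes (H2-K1, H2-D1, B2m, Tap1, Tap2, Tapbp and Psmb8) and the class II path by 3 (H2-Aa, H2-Ab1 and Cd74). All 10 had enough reads to be tested in each comparison. Whole decapsulated testes of untreated mice aged 20 weeks were profiled by stranded poly(A) RNA-seq in a study of how the loss of iron regulatory protein 1 affects spermatogenesis. The 11 samples comprised 4 WT testes on the C57Bl/6J background, 4 Irp1-/- testes and 3 Irp2-/- testes. The Irp1-/- mice carried a global knockout of Aco1, which encodes iron regulatory protein 1 (allele Aco1 tm1Roua, C57Bl/6J background), and the study bred them from heterozygous pairs and used WT littermates. The Irp2-/- mice carried a global knockout of Ireb2, which encodes iron regulatory protein 2, and their allele, breeding and litters were not given in the sources used here. No group combined both knockouts. Because the knockouts were global and the whole organ was sampled, a difference could arise in any testicular cell.

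MHC class I molecules show peptides from inside the cell to cytotoxic T cells, and nearly all nucleated cells make them. The proteasome cuts proteins into peptides, the TAP transporter carries these into the endoplasmic reticulum, and tapasin holds the transporter beside the empty heavy chain, which pairs with β2-microglobulin. MHC class II molecules show peptides taken up from outside, mainly on macrophages, dendritic cells and B cells, and there the invariant chain encoded by Cd74 guards the peptide groove until the endosome. The testis is an immune-privileged organ in which class I molecules are scarce on meiotic and post-meiotic germ cells, while macrophages of the interstitium carry class II molecules.

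Of these genes 8 lie together on chromosome 17, from Tapbp (chr17:33919478-33929290) through H2-K1 (chr17:33996012-34000619), Tap1 (chr17:34187556-34197225), Psmb8 (chr17:34198195-34201454), Tap2 (chr17:34204479-34216321), H2-Ab1 (chr17:34263227-34269418) and H2-Aa (chr17:34282744-34287823) to H2-D1 (chr17:35263094-35267497), in RefSeq coordinates on GRCm38.p6. B2m lies on chromosome 2 (chr2:122147687-122153082), and Cd74 on another chromosome.

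The sequence just before the start site is shown for genes with different behaviour in the comparisons below, because class I and class II genes are known to be read from short shared promoter boxes. The table of RefSeq promoters on GRCm38.p6 held 7 of the 10 genes, and Tap2, H2-Ab1 and Cd74 are named only. The letters searched, on both strands, were CCAAT (the CCAAT box bound by the NF-Y complex), GGGGA followed directly by TTCCC (the κB core of the class I enhancer), 2 copies of GAAA with 2 bases between them (the spacing seen in interferon response elements) and CCNNGCAAC (a core of the X box of class II genes). Matches are in capitals, and each run of 250 bases ends at the base before a RefSeq start site. For H2-K1 the table lists 2 start sites, and the distances given for H2-K1 are counted from the one used, which lies inside the outermost RefSeq coordinates of the gene.
H2-K1 (chr17:34000348-34000597, minus strand): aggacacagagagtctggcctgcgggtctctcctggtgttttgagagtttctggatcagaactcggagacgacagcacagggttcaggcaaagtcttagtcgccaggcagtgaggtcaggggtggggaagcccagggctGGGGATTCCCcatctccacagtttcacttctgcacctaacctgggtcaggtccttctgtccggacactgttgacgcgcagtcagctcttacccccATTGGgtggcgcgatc
B2m (chr2:122147437-122147686, plus strand): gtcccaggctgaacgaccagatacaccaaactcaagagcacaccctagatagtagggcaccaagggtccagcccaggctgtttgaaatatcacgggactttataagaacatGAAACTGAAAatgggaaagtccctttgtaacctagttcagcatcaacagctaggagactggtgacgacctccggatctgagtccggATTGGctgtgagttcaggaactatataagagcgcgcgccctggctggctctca
H2-Aa (chr17:34287824-34288073, minus strand): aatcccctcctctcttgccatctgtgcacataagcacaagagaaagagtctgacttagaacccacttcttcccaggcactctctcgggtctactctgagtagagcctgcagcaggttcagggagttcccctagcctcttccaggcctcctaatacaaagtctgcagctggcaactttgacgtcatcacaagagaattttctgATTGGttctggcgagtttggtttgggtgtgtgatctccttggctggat
H2-D1 (chr17:35262913-35262942, plus strand, 30 bases only): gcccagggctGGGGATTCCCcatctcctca
The H2-D1 stretch differed from the matching stretch of H2-K1 at 1 of 30 bases. Before the start sites the κB core stood 111 to 102 bases upstream in H2-K1 and 171 to 162 bases upstream in H2-D1. Its letters occurred in 0.0814% of 27025 promoters of the same length. The ATTGG that follows it stood 16 to 12 bases upstream in H2-K1 and 76 to 72 in H2-D1. The 2 windows are therefore offset, and these distances do not show a different spacing of the boxes. CCAAT, read on either strand, occurred in 34.5% of all promoters and in 6 of the 7 genes here, namely H2-K1, H2-D1, B2m, Tap1, Tapbp and H2-Aa. The spaced pair of GAAA was matched in B2m alone of the 7, 139 to 130 bases upstream, against 3.04% of all promoters. CCNNGCAAC was matched at 2 places in H2-D1 and in no other of the 7, against 4.07% of all promoters. Only exact letters were searched, so a gene without a match may still carry a variant of the element. In H2-Aa the letters gctggcaac, upstream of ATTGG, differ from CCNNGCAAC at the first base only. Psmb8 had no match to any of the 4 sets of letters in its 250 bases. Over their 250 upstream bases H2-K1 and H2-D1 were identical at 89.5% of 190 aligned bases, with 120 gap bases. The H2-D1 bases nearest its start site have no counterpart in the H2-K1 window. They include the H2-D1 match to CCNNGCAAC at 18 to 10 bases upstream. The start sites of Tap1 and of Psmb9, an immunoproteasome gene, lay 226 bases apart on opposite strands.

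Libraries held 15902473 to 22451417 counted reads, and the targeted genes followed the labels. Aco1 stood at 8.60 ± 0.605 CPM (the count of a gene scaled to a library total of 1000000) in Irp1-/- (SD, n = 4), against 11.7 ± 1.46 in WT (n = 4), and Ireb2 at 62.7 ± 1.60 CPM in Irp2-/- (n = 3), against 139 ± 4.45 in WT. Both remained detected, and the gene-wide counts cannot show which part of a transcript the remaining reads came from. The labels number the samples within a genotype without saying that each was a separate mouse, so p-values measure the spread between these samples, which may be technical. Markers of testicular cells were at the levels of a testis, with summed CPM of 13200 to 17400 for spermatid markers. Of markers from outside the testis, 6 epididymal genes summed to 2.73 to 4.49 CPM, 96.2% of it from Rnase10. The 5 blood markers summed to 37.4 to 56.7 CPM in Irp1-/-, 25.1 to 38.6 in Irp2-/- and 30.2 to 36.3 in WT, and between Irp1-/- and Irp2-/- 0 of the 3 tested were called by edgeR, 0 at an unadjusted p under 0.05 and 0 by DESeq2, with a median log2 fold change of 0.843. WT replicate 2 stood apart from the other WT samples in these genes: it was the highest WT sample for 8 of the 10, whereas it was the highest for 18.4% of all tested genes. WT replicate 1 was the lowest WT sample for 7 of the 10, against 32.9% of all tested genes. The calls that rest on WT are therefore also given without WT replicate 2.

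To compare genes with one another, CPM was divided by the length in kilobases of the longest protein-coding transcript (CPM per kb). In WT testis H2-K1, a classical class I heavy chain, was the most abundant of the 10 at 37.0 ± 3.7 CPM per kb (SD, n = 4). B2m, the light chain, followed at 32.5 ± 5.24 and Tapbp, which encodes tapasin, at 29.1 ± 1.2 CPM per kb, and the ranges of these neighbours overlapped between samples. H2-D1, the other classical heavy chain, stood lower at 10.7 ± 2.42 CPM per kb. The class II genes came next, with Cd74 at 8.40 ± 4.26, H2-Ab1, the class II β chain, at 8.08 ± 2.66 and H2-Aa, the α chain, at 5.18 ± 1.65 CPM per kb, and the samples of each overlapped those of its neighbour in this order. The remaining genes were rare. Psmb8, a catalytic subunit of the immunoproteasome, had 0.598 ± 0.262 CPM per kb. Tap2 had 0.519 ± 0.128 and Tap1, the other TAP half-transporter, 0.308 ± 0.111 CPM per kb, again with overlap between neighbours.

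Among the remaining parts of the class I path, the constitutive proteasome and the general chaperones were above H2-K1 on the same scale, and the inducible subunits and the transactivator were below it. The constitutive proteasome subunits that the immunoproteasome replaces stood in WT at 169 ± 2.71 (Psmb6), 79.0 ± 2.89 (Psmb7) and 45.4 ± 1.45 CPM per kb (Psmb5), whereas the inducible Psmb10 stood at 1.47 ± 0.181 and Psmb9 at 0.235 ± 0.0868. Psma8, the α subunit of the testis-specific proteasome, had 73.6 ± 1.04 CPM per kb and Psme4, a proteasome activator used in spermatids, 131 ± 1.44. The chaperones of the loading complex, which serve all glycoproteins, were high as well, with Calr at 285 ± 6.85, Pdia3 at 158 ± 1.64 and Canx at 52.8 ± 2.35 CPM per kb. Nlrc5, the transactivator of class I genes, stood at 1.1 ± 0.178 CPM per kb. Ciita, the master transactivator of class II genes, had 0 to 8 reads per library and was below the count filter in all 3 comparisons.

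**Figure D1:**
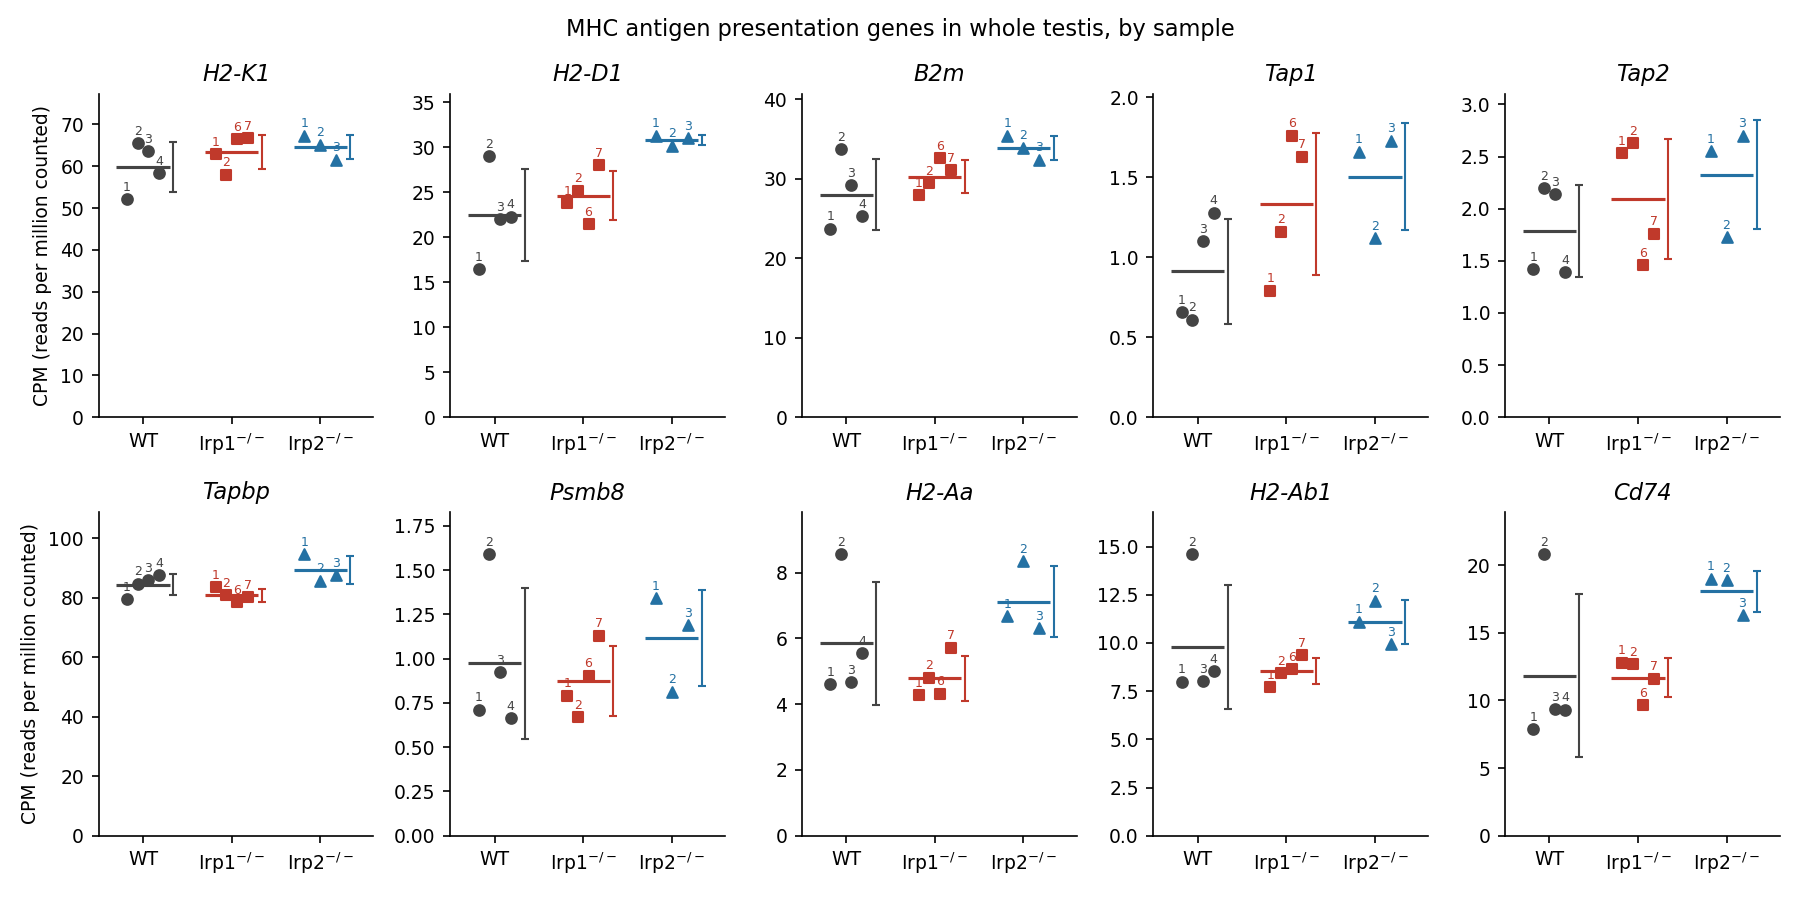
CPM (y axis from 0) of the 10 presentation genes in each testis sample, one panel per gene. Points are samples numbered by replicate (circles WT, squares Irp1-/-, triangles Irp2-/-), the horizontal line is the mean and the bar beside it ± 1 SD. For Cd74 the Irp2-/- samples sit at 16.3 to 19.0 CPM above all Irp1-/- samples, and WT replicate 2 sits at 20.8 CPM, above the other WT samples at 7.89 to 9.35.

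The comparison of Irp1-/- with Irp2-/- set the loss of the one iron regulatory protein against the loss of the other. Cd74, H2-Aa, H2-Ab1 and H2-D1 were lower in Irp1-/- than in Irp2-/- testis, which makes all 3 class II genes and 1 of the 7 class I genes, by 1.25-fold to 1.54-fold. H2-K1 differed by 1.01-fold. With adjusted p under 0.05 in edgeR's quasi-likelihood test (Benjamini-Hochberg over all genes tested), 4 of the 10 genes were called, all lower in Irp1-/-, beside 4.69% of the 16281 genes tested, 1.76% of them lower in Irp1-/-. In bulk RNA, fewer cells of a type and less RNA per cell cannot be told apart.

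Cd74 had 12.8, 12.7, 9.64 and 11.6 CPM in Irp1-/- replicates 1, 2, 6 and 7. In Irp2-/- replicates 1, 2 and 3 it had 19.0, 18.9 and 16.3 CPM. Every Irp2-/- sample was above every Irp1-/- sample, and Irp1-/- replicate 6 was the lowest of the 7. The log2 fold change of Irp1-/- against Irp2-/- was -0.62 (SE 0.0996, 95% interval -0.83 to -0.41, edgeR adjusted p = 0.000452), or 1.54-fold lower. Leaving out any 1 of the 7 samples kept this call, with log2 fold changes of -0.69 to -0.53.

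H2-Aa had 4.28, 4.81, 4.32 and 5.72 CPM in the Irp1-/- samples and 6.67, 8.34 and 6.32 CPM in the Irp2-/- samples. The groups did not overlap, and Irp2-/- replicate 2 was the highest. The log2 fold change was -0.57 (SE 0.137, edgeR adjusted p = 0.0163). Its partner chain H2-Ab1 had 7.71, 8.42, 8.64 and 9.37 CPM in the Irp1-/- samples and 11.1, 12.2 and 9.94 CPM in the Irp2-/- samples. Again Irp2-/- replicate 2 was the highest and the groups did not overlap. The log2 fold change of H2-Ab1 was -0.37 (SE 0.105, edgeR adjusted p = 0.0437), and DESeq2 gave it an adjusted p of 0.103, whereas it called Cd74, H2-Aa and H2-D1 (3 of the 10, beside 3.09% of the genes it tested). The H2-Ab1 call held in only 2 of the 7 fits that left out 1 sample, those without Irp1-/- replicate 7 and without Irp2-/- replicate 3. The H2-Aa call held in 5, and was lost without Irp1-/- replicate 1 and without Irp2-/- replicate 2 (edgeR adjusted p = 0.168 at the highest).

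In the class I path, H2-D1 had 23.8, 25.2, 21.5 and 28.0 CPM in the Irp1-/- samples and 31.3, 30.2 and 31.0 CPM in the Irp2-/- samples. The 3 Irp2-/- values lay close together and above all 4 Irp1-/- values. The log2 fold change was -0.32 (SE 0.0754, edgeR adjusted p = 0.0137), with the call lost without Irp1-/- replicate 1 or without Irp2-/- replicate 2 (edgeR adjusted p = 0.0652 at the highest). H2-K1 had 62.9, 58.0, 66.4 and 66.7 CPM in the Irp1-/- samples and 67.3, 65.2 and 61.6 CPM in the Irp2-/- samples. These groups overlapped throughout, with a log2 fold change of -0.02 whose 95% interval ran from -0.14 to 0.10.

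B2m had 27.9, 29.4, 32.6 and 31.1 CPM in the Irp1-/- samples and 35.4, 33.9 and 32.4 CPM in the Irp2-/- samples. The groups overlapped by 1 sample, and the log2 fold change of -0.16 (95% interval -0.29 to -0.02) did not pass (edgeR adjusted p = 0.221). Tapbp had 83.6, 80.8, 78.6 and 80.1 CPM in the Irp1-/- samples and 94.6, 85.7 and 87.5 CPM in the Irp2-/- samples. Here the groups did not overlap, yet the log2 fold change of -0.14 did not pass (edgeR adjusted p = 0.156). The rare genes Tap1, Tap2 and Psmb8 had 15 to 59 reads per library in these 7 samples, and their 95% intervals spanned -0.72 to 0.39, -0.59 to 0.34 and -0.95 to 0.22 on the log2 scale, so a difference of the size seen for H2-D1 was not detectable for them at this depth.

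All 10 log2 fold changes of Irp1-/- against Irp2-/- were below 0. The median was -0.157 over the 7 class I genes and -0.569 over the 3 class II genes, beside -0.002 over all genes tested. In 5 of the 10 genes every Irp1-/- sample was below every Irp2-/- sample, as were 8.42% of all tested genes. At an unadjusted p under 0.05, 6 of the 10 genes passed, beside 16.3% of all genes.

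**Figure D2:**
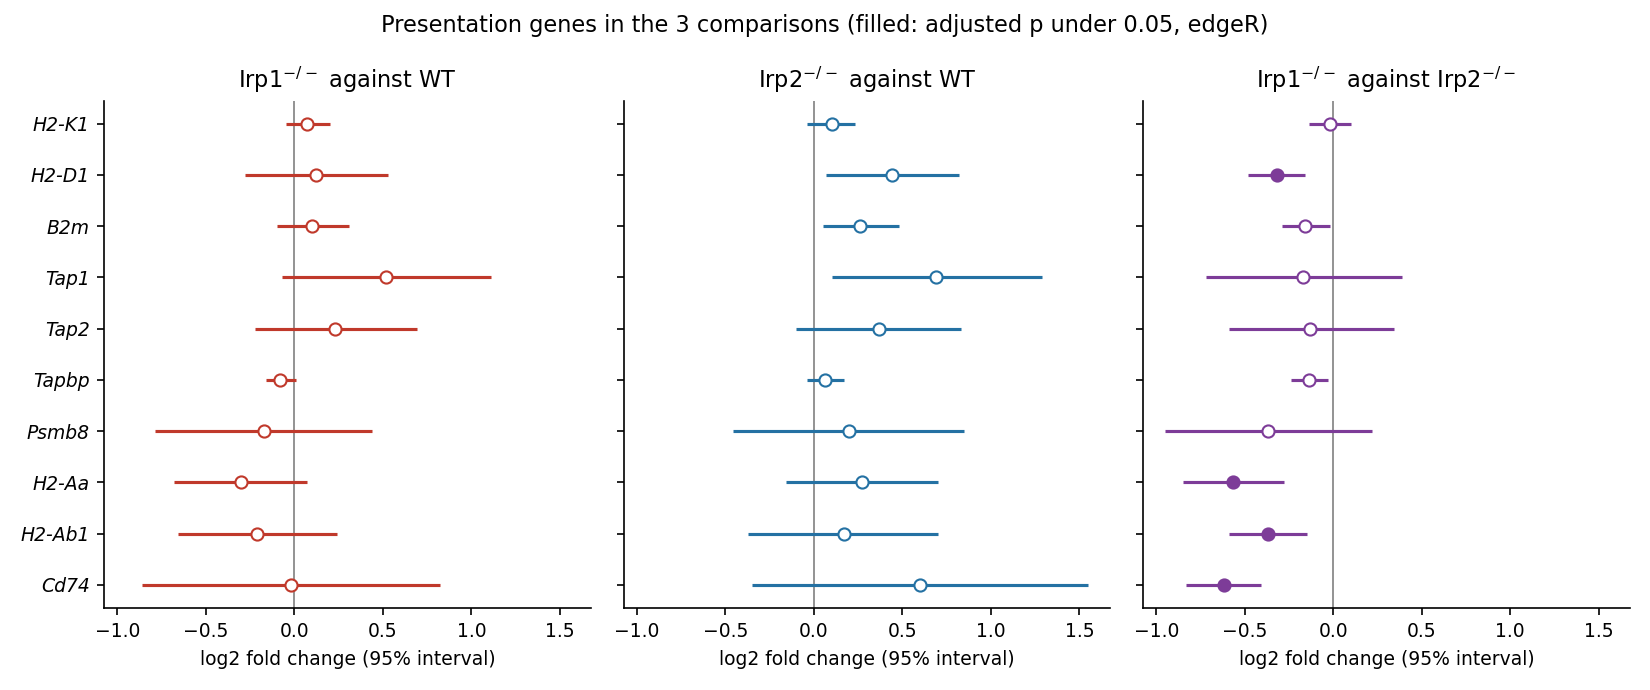
Log2 fold change (points) with its 95% interval (lines) for the 10 presentation genes in the 3 comparisons, from edgeR; a filled point has an adjusted p under 0.05. Filled points appear only for Irp1-/- against Irp2-/- (H2-D1, H2-Aa, H2-Ab1 and Cd74, from -0.62 to -0.32), and the intervals of Cd74 against WT are the widest, from -0.86 to 0.82 for Irp1-/- and from -0.35 to 1.55 for Irp2-/-.

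These 4 calls depended on which samples supplied the estimate of the spread. When all 11 samples entered the fit, the WT samples contributed to the spread. In that fit 0 of the 10 genes were called by edgeR between Irp1-/- and Irp2-/-, while 5.11% of all genes were called. The edgeR adjusted p was 0.382 for Cd74, 0.0959 for H2-Aa, 0.324 for H2-D1 and 0.352 for H2-Ab1. With the same fit but without WT replicate 2, an alternative chosen after seeing the data, the same 4 genes were called, beside 4.87% of all genes, with edgeR adjusted p of 0.000197 for Cd74, 0.0114 for H2-Aa, 0.0323 for H2-Ab1 and 0.0331 for H2-D1. The fold changes themselves did not move, since no WT sample enters them.

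The comparison of Irp1-/- with WT was the one the study was designed for. None of the 10 genes was called: edgeR's adjusted p passed 0.05 for 0 of them, beside 1.02% of the 16002 genes tested, 0 passed at an unadjusted p under 0.05, and DESeq2 called 0 of the 7 for which it gave an adjusted p (it gave none for Tap1, Tap2 and Psmb8), beside 0.828% of its genes. The log2 fold changes ran from -0.30 for H2-Aa to 0.52 for Tap1, with 5 of the 7 class I genes above 0 and all 3 class II genes below 0. The groups overlapped for every gene, where 6.18% of all tested genes did not overlap.

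Cd74 had 7.89, 20.8, 9.35 and 9.32 CPM in WT replicates 1 to 4. WT replicate 2 was thus above every Irp1-/- sample, and the other WT samples were below every one. The log2 fold change of Irp1-/- against WT was -0.02, with a 95% interval of -0.86 to 0.82, and without WT replicate 2 it was 0.40 (0.17 to 0.62, edgeR adjusted p = 0.12). H2-Ab1 showed the same arrangement in WT, at 8.0, 14.6, 8.02 and 8.55 CPM. Its log2 fold change of -0.21 (95% interval -0.66 to 0.24) became 0.05 without that sample. H2-Aa in WT had 4.6, 8.56, 4.68 and 5.55 CPM, and its value moved from -0.30 to -0.06.

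For the class I genes, H2-K1 in WT had 52.1, 65.5, 63.6 and 58.3 CPM, H2-D1 had 16.5, 29, 22 and 22.3 CPM and B2m had 23.7, 33.7, 29.2 and 25.3 CPM. In each of the 3, WT replicate 1 was the lowest and WT replicate 2 the highest WT sample. Against these the log2 fold changes of Irp1-/- were 0.07 (95% interval -0.05 to 0.20), 0.12 (-0.28 to 0.53) and 0.10 (-0.10 to 0.31). Tap1, with 10 to 23 reads in the WT libraries, had 0.657, 0.611, 1.1 and 1.28 CPM in WT and 0.792, 1.16, 1.76 and 1.63 CPM in Irp1-/-. The groups overlapped, and the log2 fold change of 0.52 did not pass (95% interval -0.07 to 1.11, edgeR adjusted p = 0.489). Tapbp had 79.5, 84.7, 85.8 and 87.6 CPM in WT, and its log2 fold change of -0.08 had an interval of -0.16 to 0.01. Without WT replicate 2, 0 of the 10 genes were called for Irp1-/- against WT by edgeR, beside 0.519% of all genes. The medians were then 0.212 for class I and 0.051 for class II genes, beside 0.002 over all genes tested.

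Irp2-/- against WT gave positive log2 fold changes for all 10 genes, from 0.06 for Tapbp to 0.69 for Tap1, but 0 of the 10 had an edgeR adjusted p under 0.05, beside 1.21% of the 16154 genes tested. At an unadjusted p under 0.05, 3 passed, beside 9.42% of all genes, namely H2-D1, B2m and Tap1, and DESeq2 called 0, beside 0.904% of its genes. H2-D1 was 0.44 higher on the log2 scale (95% interval 0.07 to 0.82, edgeR adjusted p = 0.415) and was the only 1 of the 10 whose Irp2-/- samples all lay above all WT samples, as 6.08% of tested genes did. B2m differed by 0.26 (0.05 to 0.48, edgeR adjusted p = 0.356). Tap1 had 1.66, 1.12 and 1.73 CPM in the Irp2-/- samples, overlapping WT, and differed by 0.69 (0.10 to 1.29, edgeR adjusted p = 0.388). The medians were 0.263 for class I and 0.27 for class II genes, beside 0.003 over all genes tested.

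WT replicate 2 decided this comparison. It had been singled out because it was high in these same genes. Leaving it out raises the differences from WT where it was high and narrows the WT spread. The p-values of fits without it therefore cannot be taken at face value. Without it the WT mean of Cd74 was 8.85 ± 0.838 CPM (SD, n = 3) in place of 11.8 ± 6.00 (n = 4), and Cd74 was 2.02-fold higher in Irp2-/- (log2 fold change 1.01, 95% interval 0.80 to 1.23, edgeR adjusted p = 2.02e-06). H2-D1 was then 1.5-fold higher (log2 fold change 0.59, edgeR adjusted p = 0.000347) and B2m 1.29-fold higher (0.37, edgeR adjusted p = 0.0178), so that 3 of the 10 were called, beside 0.94% of all genes in that fit. H2-Aa (0.51, edgeR adjusted p = 0.13) and H2-Ab1 (0.42, edgeR adjusted p = 0.0979) did not pass. In the same fit 0 of 15 macrophage markers were called, with a median of 0.325, and 1 of 18 interferon-induced genes was called, with a median of 0.317, beside -0.001 over all genes. The macrophage markers C1qa, C1qb and Laptm5 had values of 0.36, 0.42 and 0.45, and Cx3cr1 -0.64. Their part in the result was not tested. Leaving out any other single sample called 0 of the 10. The comparisons of Irp1-/- and of Irp2-/- with WT share the same WT samples.

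**Figure D3:**
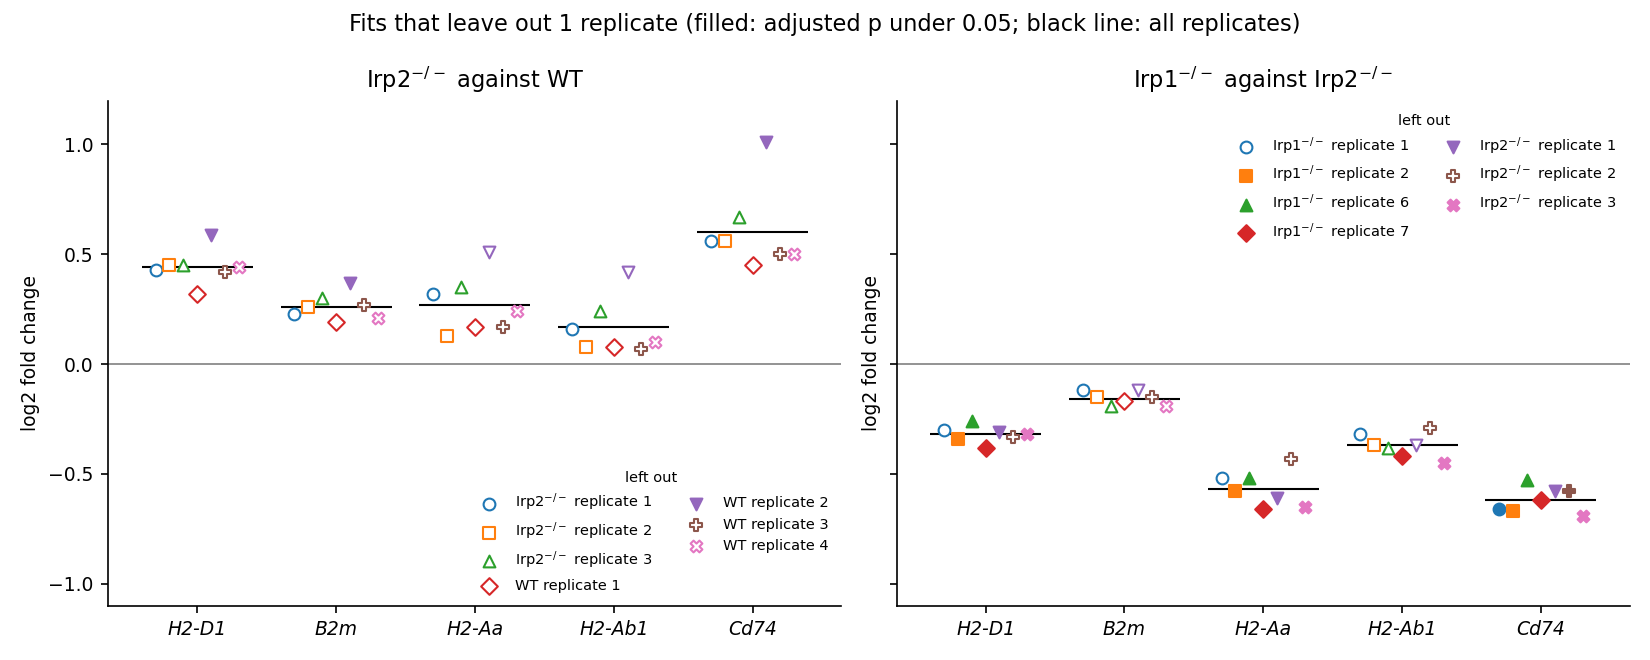
Log2 fold change (y axis) of 5 presentation genes when each replicate in turn was left out of the fit, for Irp2-/- against WT (left) and Irp1-/- against Irp2-/- (right); each marker is 1 fit, filled where the edgeR adjusted p was under 0.05, and the black line is the value with all replicates. On the left the only filled markers are the fits without WT replicate 2 (Cd74 at 1.01), while on the right Cd74 is filled in all 7 fits.

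The H2-K1 and H2-D1 transcripts were 90.8% identical over their aligned bases, and reads of 50 bases can be shared between such genes. Of the 50-base stretches of the H2-K1 transcript, 8.79% also occurred in a transcript of another gene (6.94% in H2-D1). Of those of H2-D1, 14.3% did, most often in H2-Q1 (7.40%), with 5.31% in H2-K1. The assignment of reads from shared stretches is uncertain where the other end of the pair does not settle it. B2m, Psmb8, H2-Aa, H2-Ab1 and Cd74 had 0 shared stretches. The ratio of H2-D1 to H2-K1 CPM within a library was 0.378, 0.434, 0.325 and 0.419 in Irp1-/- and 0.465, 0.463 and 0.503 in Irp2-/-. In WT it was 0.318, 0.443, 0.346 and 0.382. All 3 Irp2-/- ratios were thus above those of all other samples. The log2 ratio of Irp1-/- was -0.30 relative to Irp2-/- (exact permutation test, two-sided p = 0.0571, where the smallest possible p was 0.0286) and that of Irp2-/- was 0.37 relative to WT (exact permutation p = 0.0571).

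In 5 further lists of 108 pathway genes, edgeR called 2 of the 73 tested between Irp1-/- and Irp2-/-, both lower in Irp1-/-, beside 4.69% of all genes, and DESeq2 called 0. In either comparison with WT 0 were called by edgeR or by DESeq2. At an unadjusted p under 0.05 the WT comparisons gave 7 of 68 tested for Irp1-/-, beside 12.1% of all genes, and 3 of 69 for Irp2-/-, beside 9.42%. Among other class II genes, 1 of 10 tested was called: H2-Eb1, a second class II β chain, had 4.31 ± 0.376 CPM in Irp1-/- (SD, n = 4), 6.17 ± 0.317 in Irp2-/- (n = 3) and 4.77 ± 2.23 in WT (n = 4). Its log2 fold change of Irp1-/- against Irp2-/- was -0.51 (edgeR adjusted p = 0.0183, and 0.0665 by DESeq2). This call was lost without Irp1-/- replicate 2 or 6, without Irp2-/- replicate 1 or 2, and with all 11 samples in the fit. Without WT replicate 2, H2-Eb1 was higher in Irp2-/- than in WT by 0.72 on the log2 scale (edgeR adjusted p = 0.0287). H2-DMa, which exchanges peptides in the groove, had 5.23, 5.46 and 5.76 CPM in Irp1-/-, Irp2-/- and WT, with a log2 fold change of -0.06 for Irp1-/- against Irp2-/-. Of the endosomal proteases and the ligase that turns over class II, Ctsl (0.21, edgeR adjusted p = 0.103), Lgmn (0.16) and March8 (-0.17, edgeR adjusted p = 0.221) did not pass. The protease Ctss, named after its values were seen, was not called either. It had 3.69 ± 0.49 CPM in Irp1-/-, 5.27 ± 1.19 in Irp2-/- and 3.82 ± 1.28 in WT. Every Irp1-/- sample was below every Irp2-/- sample for Ctss, as were 8.42% of all tested genes. At an unadjusted p under 0.05, 1 of this list was higher in Irp1-/- than in Irp2-/- and 3 were lower, beside 16.3% of all genes.

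Among class I-like chains 0 of the 12 tested were called between Irp1-/- and Irp2-/- by edgeR, with 1 higher and 1 lower at an unadjusted p under 0.05. H2-Q4 stood at 1.95 ± 0.314 CPM in Irp1-/- and 3.01 ± 0.398 in Irp2-/- (log2 fold change -0.61, edgeR adjusted p = 0.062). Hfe, a class I-like protein that senses iron through transferrin receptors, stood at 9.0 ± 1.47, 7.47 ± 0.821 and 8.07 ± 0.747 CPM in Irp1-/-, Irp2-/- and WT, with log2 fold changes of 0.13 for Irp1-/- and -0.14 for Irp2-/- against WT. Mr1, which presents vitamin B metabolites, and Fcgrt, the neonatal Fc receptor, differed between Irp1-/- and Irp2-/- by 0.07 and 0.22 on the log2 scale, neither past the test. The 15 peptide processing and loading genes tested gave 0 calls in that comparison by edgeR, with 1 at an unadjusted p under 0.05, and a median of -0.037. Psmb10 (-0.11), Psmb5 (0.06), Psmb6 (-0.04), Psmb7 (0.02), Psme4 (0.03), Calr (-0.05), Canx (-0.08) and Pdia3 (-0.03) all had log2 fold changes near 0. Psmb9 had 2 to 10 reads per library and was not tested.

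Of 17 transcription and signalling genes behind MHC expression, 0 were called between Irp1-/- and Irp2-/- by edgeR, with 2 higher at an unadjusted p under 0.05 and a median of 0.012. Nlrc5 stood at 9.59 ± 1.31, 8.06 ± 1.61 and 8.34 ± 1.35 CPM in Irp1-/-, Irp2-/- and WT, with overlapping groups, and none of its differences passed. Its part in the difference of H2-D1 was not tested. Nfya, a subunit of NF-Y, Rela, an NF-κB subunit, Ifngr2, a chain of the interferon gamma receptor, and Jak1, the kinase behind it, had log2 fold changes between -0.09 and 0.04 in that comparison. Of 19 interferon-induced genes tested, 1 was called, Parp14, an ADP-ribosyltransferase, at 2.12 ± 0.273 CPM in Irp1-/-, 3.24 ± 0.230 in Irp2-/- and 2.07 ± 0.0921 in WT. Its log2 fold change of Irp1-/- against Irp2-/- was -0.60 (edgeR adjusted p = 0.0437, and 0.164 by DESeq2), and against WT the value of Irp2-/- was 0.62 (edgeR adjusted p = 0.0921). The Parp14 call held without Irp1-/- replicate 7 and was lost without any other single sample of the 7. Iigp1, an interferon-inducible GTPase chosen after its values were seen, was 1.35 higher on the log2 scale in Irp2-/- than in WT once WT replicate 2 was left out (edgeR adjusted p = 0.0136), against 0.64 with it (edgeR adjusted p = 0.806). Irf9 (-0.13), Stat2 (0.19) and Ifi27 (0.26) did not pass. The summed CPM of the interferon-induced list was 41.2 to 43.0 in Irp1-/- and 43.0 to 44.8 in Irp2-/-, and in WT it was 33.5, 45.2, 38.4 and 37.7 in replicates 1 to 4, so that here too WT replicate 1 was the lowest and WT replicate 2 the highest.

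The span on chromosome 17 from Tapbp to H2-D1 held 60 other tested genes. Of these, 1 (H2-Eb1), or 1.67%, was called between Irp1-/- and Irp2-/-, below the 4.69% of all genes, and 0 were called in the comparisons with WT.

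Class II genes mark few cells in a testis, so the markers of those cells are given beside these results. For macrophages 0 of 15 tested markers were called in any comparison, and between Irp1-/- and Irp2-/- 1 was lower at an unadjusted p under 0.05 and the median was -0.154. Their summed CPM was 394 to 421 in Irp1-/-, 409 to 419 in Irp2-/- and 378 to 432 in WT. Aif1 made up 76.1% of this sum. Without it, a choice made after seeing the data, the sum was 95.5 to 103 in Irp1-/-, 97.9 to 112 in Irp2-/- and 84.1, 105, 93.2 and 85.6 in WT replicates 1 to 4. WT replicate 2 was thus again the highest WT sample.

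Markers of dendritic cells summed to 17.1 to 19.2 CPM in Irp1-/- and 15.6 to 21.1 in Irp2-/-, with Cd209a and Clec9a at 0 or 1 read per library and 54.7% of the sum from Zbtb46. Of the 4 dendritic markers tested between Irp1-/- and Irp2-/-, 1 was called by edgeR. Of their log2 fold changes 2 were positive and 2 negative, with a median of 0.083. The 1 called was Ccr7, a homing receptor of mature dendritic cells and T cells. It was higher in Irp1-/- (2.90 ± 0.360 CPM) than in Irp2-/- (1.59 ± 0.259, log2 fold change 0.86, edgeR adjusted p = 0.0102), opposite in direction to the class II genes. Zbtb46 was not called, at 9.53 ± 0.599 CPM in Irp1-/- and 11.1 ± 2.23 in Irp2-/-. B cell markers summed to 5.79 to 6.97 CPM in Irp1-/- and 5.95 to 6.75 in Irp2-/-, of which 81.0% was Pax5, with the defining markers Cd79a and Cd79b at 0 to 5 reads per library. T cell markers summed to 4.94 to 5.91 CPM in Irp1-/- and 5.49 to 5.64 in Irp2-/-. By edgeR 2 of 8 Leydig and 3 of 8 Sertoli cell markers were higher in Irp1-/- than in Irp2-/-, beside 4.69% of all genes called, and by DESeq2 2 and 0 were called. They had summed CPM of 1020 to 1200 against 774 to 1060 and of 1050 to 1200 against 947 to 1100. Of 7 spermatogonial markers 1 was lower by edgeR and 0 were called by DESeq2, and of 6 peritubular myoid markers 1 was higher by edgeR and 1 was called by DESeq2. The part of these cell markers in the differences of the presentation genes was not tested.

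Across the 11 samples, after the mean of each genotype was taken off the log2 CPM, 16 relations among presentation genes and marker sums were computed with exact permutation within genotypes. H2-Aa and H2-Ab1, the 2 chains of one molecule, moved together (Pearson r = 0.95, exact permutation p = 0.000868, adjusted over the 16 relations 0.0139; Spearman rho = 0.88, exact permutation p = 0.0026, adjusted 0.0416). Without the 2 samples farthest from the median of H2-Aa, Irp1-/- replicate 7 and WT replicate 2, r was 0.84. Without WT replicate 2 alone r was 0.88, with an adjusted permutation p of 0.136, so the relation no longer passed. Cd74 followed the dendritic marker sum (r = 0.63, exact permutation p = 0.00231, adjusted 0.0185; rho = 0.64, exact permutation p = 0.0223, adjusted 0.126; r = 0.85 without the 2 farthest samples), and without WT replicate 2 the adjusted permutation p was 0.136. H2-K1 and B2m, the 2 chains of the class I molecule, gave r = 0.86, which did not pass after adjustment (exact permutation p = 0.0107, adjusted 0.0571; rho = 0.84, exact permutation p = 0.0237, adjusted 0.126; r = 0.92 without the 2 farthest).

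The other 13 relations did not pass. Cd74 against H2-Ab1 gave r = 0.88 (rho = 0.56, adjusted permutation p = 0.189 for r and 0.352 for rho), which fell to 0.21 without the 2 samples farthest in H2-Ab1, 1 of them WT replicate 2, so that it rests on those samples. Cd74 against the macrophage sum gave r = 0.76 (rho = 0.61, adjusted permutation p = 0.189 for r and 0.296 for rho), and 0.40 without the 2 farthest samples. With Aif1 left out of the sum r was 0.64 (rho = 0.42, adjusted permutation p = 0.392 for r and 0.519 for rho), and with WT replicate 2 left out as well it was -0.24 (adjusted permutation p = 0.907), so that the sign rests on that sample. Tap1 gave r = 0.13 with H2-K1, 0.01 with Psmb8 and 0.00 with Tapbp, with adjusted permutation p between 0.851 and 0.992. Without WT replicate 2 these were 0.46, 0.53 and 0.07, with adjusted permutation p between 0.397 and 0.956. Without the 2 farthest samples they were -0.20, 0.56 and 0.38.

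**Figure D4:**
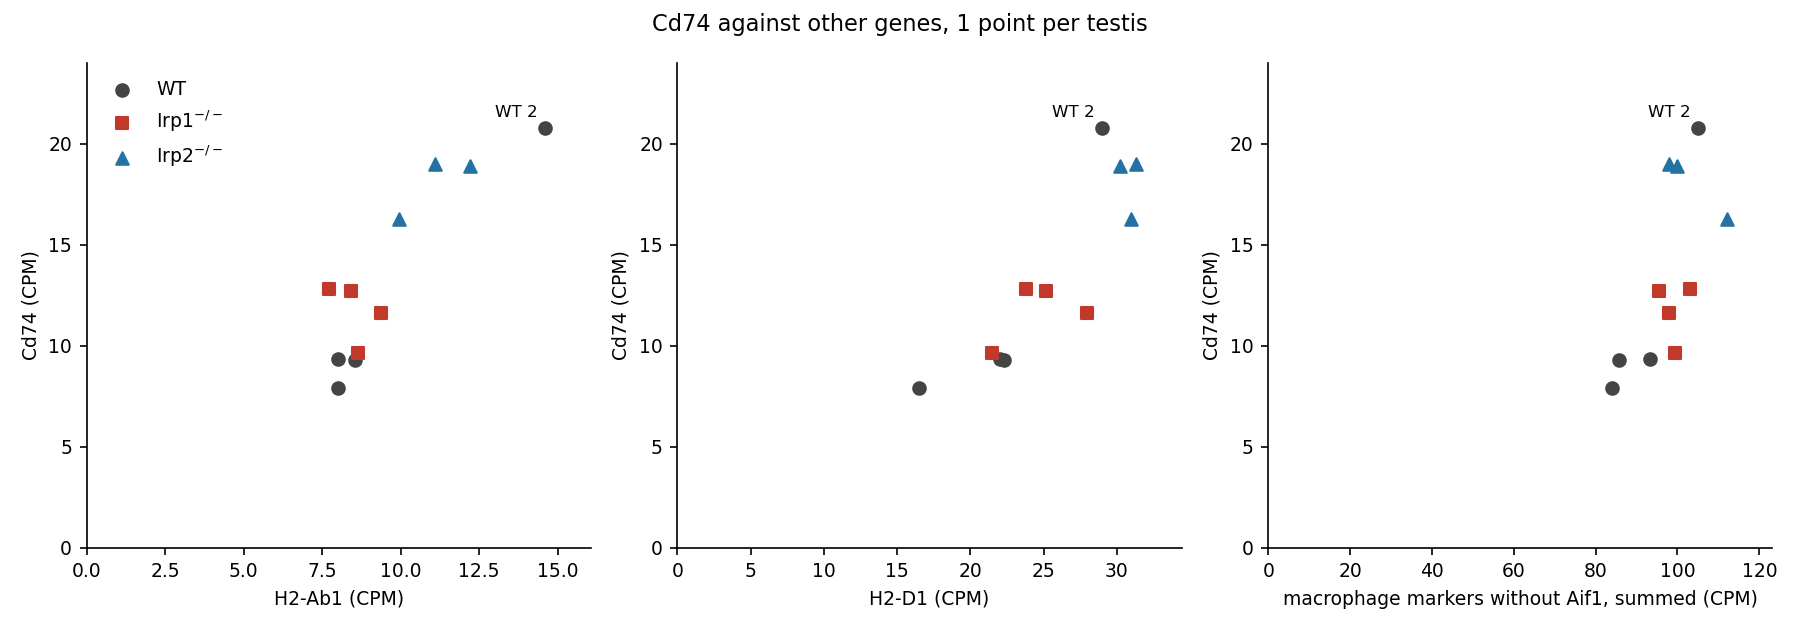
Cd74 (y axis, CPM) against H2-Ab1, against H2-D1 and against the summed macrophage markers without Aif1 (x axes, CPM), with 1 point per testis sample and symbols by genotype as in the key. WT replicate 2 (WT 2) lies at 20.8 CPM of Cd74 and 14.6 CPM of H2-Ab1, beside or beyond the Irp2-/- samples, while the other WT samples lie at 7.89 to 9.35 CPM of Cd74.

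As a description, the genes whose deviations from the genotype means were most like those of Cd74 over the 11 samples, among 14970 genes of at least 1 CPM on average, were Gyltl1b (Pearson r = 0.927), H2-Eb1 (0.921), Serping1 (0.913), Arfgef3 (0.902) and Klhl22 (0.900). H2-Ab1 ranked 12 in that order, H2-D1 31 and H2-Aa 36, whereas H2-K1 ranked 701. For H2-K1 they were Naa10 (0.925), Arl6ip4 (0.922), Tktl2 (0.914), Snx7 (0.905) and Rfxap (0.905), with B2m at rank 11. WT replicate 2 enters each of these values.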

How the data were processed

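For all 11 testis samples the authors deposited 1 table of unnormalized gene counts. According to the study's methods and the labels, RNA was taken from whole decapsulated testes, stranded poly(A) libraries were read as paired ends of 50 bases, and an nf-core RNA-seq pipeline used the mm10 build; the counting tool was not given in the sources used here. The samples were grouped by the genotype in the labels. Counts were tested with edgeR 4.0.16 (R 4.3.3; quasi-likelihood test, TMM scaling, filterByExpr, only the 2 genotypes compared in each fit, Benjamini-Hochberg adjustment over all genes tested, threshold 0.05). Log2 fold changes are the first genotype named minus the second, and 95% intervals use the standard error of that fit. CPM are counts divided by the library total. Per-kilobase levels use GENCODE M21 transcripts, and positions and promoters RefSeq on GRCm38.p6. Single-sample precision covers counting error only. The scripts were tested on simulated data.

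The members and lists were chosen with earlier results of these data known. Named besides the 10 genes were pathway genes called in any comparison and up to 4 of each list with the highest mean CPM. Nlrc5, Ciita, Hfe and 5 further proteasome subunits were named as well. Iigp1, Ctss, Psma8, Ccr7 and the markers named were picked after their values were seen. Samples of 1 genotype differed by more than sampling noise (chi-square over degrees of freedom 2.00 to 7.05 in 15 pairs). Alternatives were RLE scaling, no count filter, at least 10 counts in every sample, DESeq2 1.42.0, all 11 samples in the fit, a replicate block and leaving out each replicate; all samples but WT replicate 2, correlations without it and the macrophage sum without Aif1 were added after seeing the data.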

Additional observations from a re-analysis of the deposited data

Results flagged for a closer look

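In groups of 4 samples, the highest or lowest sample was set against the rest, and 8 of 106 such groups held a sample whose gap to its nearest neighbour was, as a share of the whole range, above Dixon's 95% critical value; chance gives about 1 in 20 groups, or 5.3 here. Among the presentation genes WT replicate 2 stood apart for H2-Ab1, at 14.6 CPM against 8.0 to 8.55 in the other WT samples, and for Cd74, at 20.8 CPM against 7.89 to 9.35. Among the pathway genes Irp1-/- replicate 7 stood apart for Hfe, at 11.2 CPM against 8.08 to 8.44, and for March8, at 22.1 CPM against 19.6 to 20.0. Irp1-/- replicate 2 was low for Canx, at 209 CPM against 219 to 220, and WT replicate 4 was low for Psme4, at 835 CPM against 851 to 854. Outside the pathway, WT replicate 3 was low for Ireb2, at 132 CPM against 140 to 142, and the spermatid marker sum of Irp1-/- replicate 7 was 17400 CPM against 14900 to 15200.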

How the results depend on the processing

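Counts of calls over the comparisons were within 1.5 times the value given in 69 of 82 recomputations. These mix counts over all genes with counts of presentation genes. Presentation gene counts against WT that were 0 in both fits are among the 69 and say nothing about stability. Leaving out 1 replicate moved the number of genes called by edgeR from 414 to 763 for Irp1-/- against Irp2-/-, from 55 to 216 for Irp1-/- against WT and from 118 to 223 for Irp2-/- against WT, and the number of presentation genes called from 1 to 4, from 0 to 0 and from 0 to 3; the 3 came without WT replicate 2. With all 11 samples in the fit, 0 presentation genes were called between Irp1-/- and Irp2-/-. The replicate numbers did not pair the samples, since deviations of same-numbered samples correlated at -0.01 to 0.078. Under a replicate block 439 genes, or 2.74% of those tested, were called for Irp1-/- against WT, with 1 presentation gene among them (H2-Ab1, -0.49, edgeR adjusted p = 0.0217). For Irp1-/- against Irp2-/- the block called 5 presentation genes, beside 5.23% of all genes tested. The sign turned only for values that had not passed the test. For Irp1-/- against WT, fits that left out 1 replicate gave -0.32 to 0.16 for Psmb8, -0.30 to 0.05 for H2-Ab1, -0.17 to 0.40 for Cd74 and -0.33 to 0.21 for H2-Eb1, each positive without WT replicate 2 (Cd74 also at 0.07 without Irp1-/- replicate 6), and -0.04 to 0.07 for Parp14; the block gave -0.02 for B2m and -0.03 for Parp14. For Irp1-/- against Irp2-/- they gave -0.06 to 0.02 for H2-K1, -0.34 to 0.01 for Tap1 and -0.29 to 0.02 for Tap2, and the block gave 0.28 for Tap2. Among correlations, Tap1 stood at about 0 with Psmb8 (0.01) and with Tapbp (0.00), so no sign can be read for these 2. They were 0.00 and 0.01 at a prior count of 0.5, and -0.15 and -0.13 in WT and Irp1-/- samples only. Without WT replicate 2 Tap1 with Tapbp stood at 0.07. In that setting the sign turned for Cd74 with B2m (-0.01), Cd74 with the B cell sum (-0.13) and H2-K1 with the Leydig sum (0.07). With Aif1 also left out, Cd74 with the macrophage sum turned to -0.24. The cause of these changes was not tested. Tap1, Tap2 and Psmb8 had 10 to 59 reads per library, which limits their precision.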
